A study of Homo sapiens with 16 samples.

Results

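UNC0638, an inhibitor of the histone methyltransferase G9a, given together with the EZH2 inhibitor GSK126 was compared with GSK126 given on its own in MM.1S, an established human multiple myeloma cell line. The samples were taken by their treatment labels, and the comparison sets 2 arrays of the combination against 2 arrays of GSK126, 4 of the 16 samples of the series. It asks what blocking G9a adds to blocking EZH2.

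Gene expression was measured on 1-colour arrays in MM.1S and in RPMI-8226, another established myeloma line. Each line was kept for 6 days with the solvent DMSO, GSK126 at 1 µM, UNC0638 at 1 µM, or both drugs at 1 µM each, and each of the 8 groups has 2 arrays. The labels number the arrays of a group as replicates, the study describes them as biological replications, and their number limits the precision of every value. The 8 arrays of each line lay on a slide of their own, with each treatment in a column and each replicate number in a row, so line cannot be told apart from slide, treatment from column, or replicate number from row.

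EZH2 is the catalytic subunit of PRC2, the complex that methylates H3K27, a mark of silenced genes. G9a, the product of EHMT2, works with its partner EHMT1 to place methyl groups on H3K9, another mark of silenced genes, and UNC0638 inhibits both. Myeloma cells are malignant plasma cells, which depend on the transcription factors IRF4 and MYC and carry a heavy load of antibody synthesis.

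Between 51.1% and 52.1% of the spots were well above background on the 4 arrays. The values were 51.1% and 51.3% with GSK126 and 52.1% and 51.8% with the combination. The 75th percentile of the deposited intensities was 438 and 458 with GSK126 and 455 and 438 with the combination. Levels below are log2 intensities relative to that percentile, so a negative level is dimmer than it, and levels of different probes are not read as relative amounts of RNA. Across probes, which are not independent replicates, the 2 arrays correlated with r 0.994 with GSK126 and 0.993 with the combination.

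The cells were checked against marker lists. All 10 plasma cell markers were above background, and their summed level relative to the 75th percentile was 518 and 597 with GSK126 and 524 and 531 with the combination, and the brightest probe was that of SEC11C, a subunit of the signal peptidase. Of the 7 mature B cell markers 3 were above background with GSK126 and 4 with the combination, with the brightest probe in CR2 and summing to 7.98 and 8.42 against 8.17 and 8.23. The defining markers PAX5 and CD22 were not above background on any MM.1S array. The erythroid markers summed to 3.60 and 3.93 against 3.40 and 3.30 with 3 of 6 above background in either group. Epithelial markers summed to 2.0 and 1.86 against 1.45 and 1.33, with 3 and 2 of 5 above background and the brightest probe in KRT8, and stromal markers reached only 0.141 and 0.156 against 0.134 and 0.146, with the brightest probe in PDGFRB. A brightest probe does not rank its gene's RNA above that of other genes.

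Markers of other blood cells were summed in the same way. The myeloid sum was 2.95 and 3.22 with GSK126 and 7.60 and 8.55 with the combination, from the same 4 of 7 measured genes with the brightest probe in CD33, which carries most of the rise, while CSF3R fell by 0.67, CD14 differed by -0.18 and was not called (adjusted p 0.207), and MPO, ELANE and CSF1R were not above background. T cell markers summed to 1.70 and 1.80 against 2.04 and 2.37, with 4 and 5 of 8 above background, the brightest probe in TRAT1, and LCK and CD5 not above background. NK cell markers summed to 1.91 and 1.47 against 2.12 and 1.81, with 3 of 6 above background and the brightest probe in NCAM1, and the groups overlapped. In bulk RNA, a change in the share of cells of a kind and a change in RNA per cell cannot be told apart, and which of them applies was not tested.

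Of 24537 probes tested with limma, 3852 were higher with the combination, 15.7% of those tested, and 5582 were lower, 22.7%, at an adjusted p under 0.05. Of the called probes 3852 and 5581 had both combination arrays beyond both GSK126 arrays. Over all 24537 probes tested, called or not, the groups did not overlap in 17684. The direction of the balance depended on scaling. The median log2 change was -0.07 with the percentile taken over all probes and 0.03 with the percentile taken over probes detected on every array, a shift of 0.103, and the share of called probes that were higher was 40.8% and 55.2%. Quantile normalization gave 47.3%. Single arrays moved the counts, and without combination replicate 2 the called probes were 2257 higher and 3668 lower. Without GSK126 replicate 1 they were 2648 higher and 3467 lower, and without GSK126 replicate 2 they were 2553 and 3401. A fit without the background filter called 2562 higher and 3343 lower, and a fit over all 16 arrays called 2352 higher and 4104 lower.

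More than 2-fold changes leaned the other way. Among called probes measured in both groups 825 were more than 2-fold higher and 465 lower. Of probes whose dimmer group was not above background on either array, 235 higher and 46 lower had a bound past 2-fold. Such probes passed the filter only through their brighter group, so these counts do not measure the lean. In all, 1114 probes were kept only through the combination arrays and 868 only through the GSK126 arrays. Counting 1 probe for each of 14259 genes, 2381 genes were higher, 16.7%, and 3599 were lower, 25.2%. Over the 13484 genes measured in both groups, 15.7% were higher and 26% were lower, with a median of -0.08, and these shares stand beside each gene list in what follows.

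**Figure D1:**
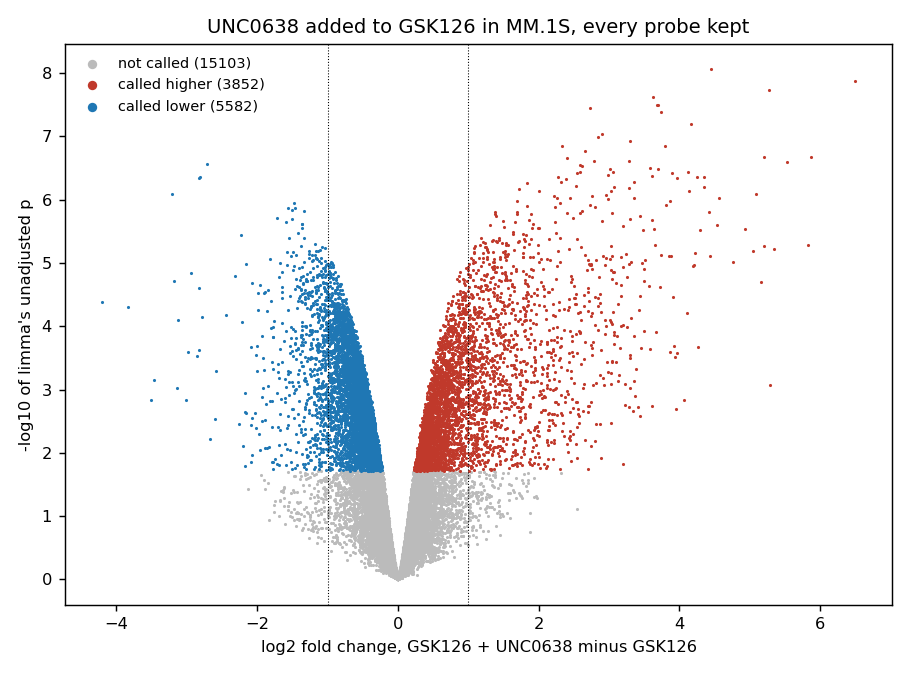
Log2 change of each probe with the combination relative to GSK126 (horizontal axis) against minus log10 of the unadjusted p (vertical axis), with dotted lines at 2-fold. The 3852 probes called higher reach further from 0 than the 5582 called lower, and probes not called are grey.

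Of the genes measured in both groups, the 10 with the largest rises differ in what they do. IL1RN, which encodes the interleukin-1 receptor antagonist, was -4.19 and -3.62 on the GSK126 arrays and 1.41 and 1.84 on the combination arrays. HSD11B1, the enzyme that regenerates active cortisol, was -1.64 and -2.13 against 2.82 and 2.26. For both genes every combination array lay above every GSK126 array. Groups that do not overlap were a condition for choosing the largest rises and falls, including those given as lower bounds. For these genes it is therefore not a result. IL1RN rose by 5.53 on the log2 scale (SE 0.23, adjusted p 0.000278), although its other kept probe gave 0.47 and was not called (adjusted p 0.137). HSD11B1 rose by 4.42 (SE 0.25, adjusted p 0.000484).

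FCRLA, an intracellular Fc receptor relative of B lineage cells, was bright with GSK126 alone. Its level was 2.06 and 2.10 with GSK126 and 5.81 and 5.74 with the combination, and FCGR2B, the inhibitory receptor for IgG, was -2.86 and -2.83 against 0.89 and 0.90. The replicates of each gene lay close together and the groups far apart. FCRLA rose by 3.70 (SE 0.11) and FCGR2B by 3.74 (SE 0.11), each with an adjusted p of 0.000124. The other rises of this rank were FCRL2, 4.29, a further Fc receptor-like gene; UBD, 4.26, a ubiquitin-like modifier; CACNA1A, 4.13, a calcium channel subunit; LAMB3, 3.65, a laminin chain; CEACAM1, 3.61, an adhesion receptor; and TRIM22, 3.57, an antiviral ubiquitin ligase.

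Where a probe was not above background on either array of the dimmer group, only a lower bound is given. It sets the mean of the bright group against the mean of the dim group after each dim value has been raised, where lower, to the lowest signal called well above background on that array. CFTR, the chloride channel, was -6.12 and -6.50 with GSK126 and 0.12 and 0.24 with the combination. IFI44L, an interferon-induced gene, was -4.98 and -6.08 against -0.74 and 0.00. Both were above background only on the combination arrays of this pair of groups, and the groups did not overlap. CFTR rose at least 32.8-fold (adjusted p 0.000124) and IFI44L at least 22.3-fold (adjusted p 0.00125). The neuronal adhesion gene NRCAM rose at least 20.5-fold, the membrane protein gene SHISAL2A at least 14.4-fold and the kinesin gene KIF6 at least 13.8-fold.

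Falls were smaller than rises. TERT, the catalytic subunit of telomerase, was -0.02 and -0.05 with GSK126 and -3.26 and -3.24 with the combination. LDHB, a lactate dehydrogenase subunit, was 5.15 and 5.02 against 3.11 and 2.74. The combination arrays lay below the GSK126 arrays for both genes. TERT fell by 3.21 (SE 0.16, adjusted p 0.000370) and LDHB fell by 2.15 (SE 0.17, adjusted p 0.00101), while the other kept probe of LDHB fell by only 0.52. Further falls were -2.82 for ACTL8, an actin-like testis gene, -2.82 for NEURL1, a ubiquitin ligase of the Notch pathway, -2.71 for ADGRE2, an adhesion receptor, and -2.32 for TMEM132E, a membrane protein. The list of 10 ended with LINC00839, a long noncoding RNA, at -2.23 with another kept probe at -1.48 not called, DIXDC1, a Wnt pathway gene, at -2.21, SLC6A9, a glycine transporter, at -2.17, and SLC16A10, an aromatic amino acid transporter, at -2.07.

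EPCAM, the epithelial adhesion gene, was -2.12 and -1.76 with GSK126 and -5.51 and -6.76 with the combination, where it was not above background on either array. It fell at least 7.56-fold (adjusted p 0.00167). The pseudogene CEP192P1 fell at least 5.38-fold, the cationic amino acid transporter SLC7A2 at least 4.86-fold, the growth factor FGF9 at least 3.95-fold and the myosin-binding protein MYBPC2 at least 3.58-fold.

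**Figure D2:**
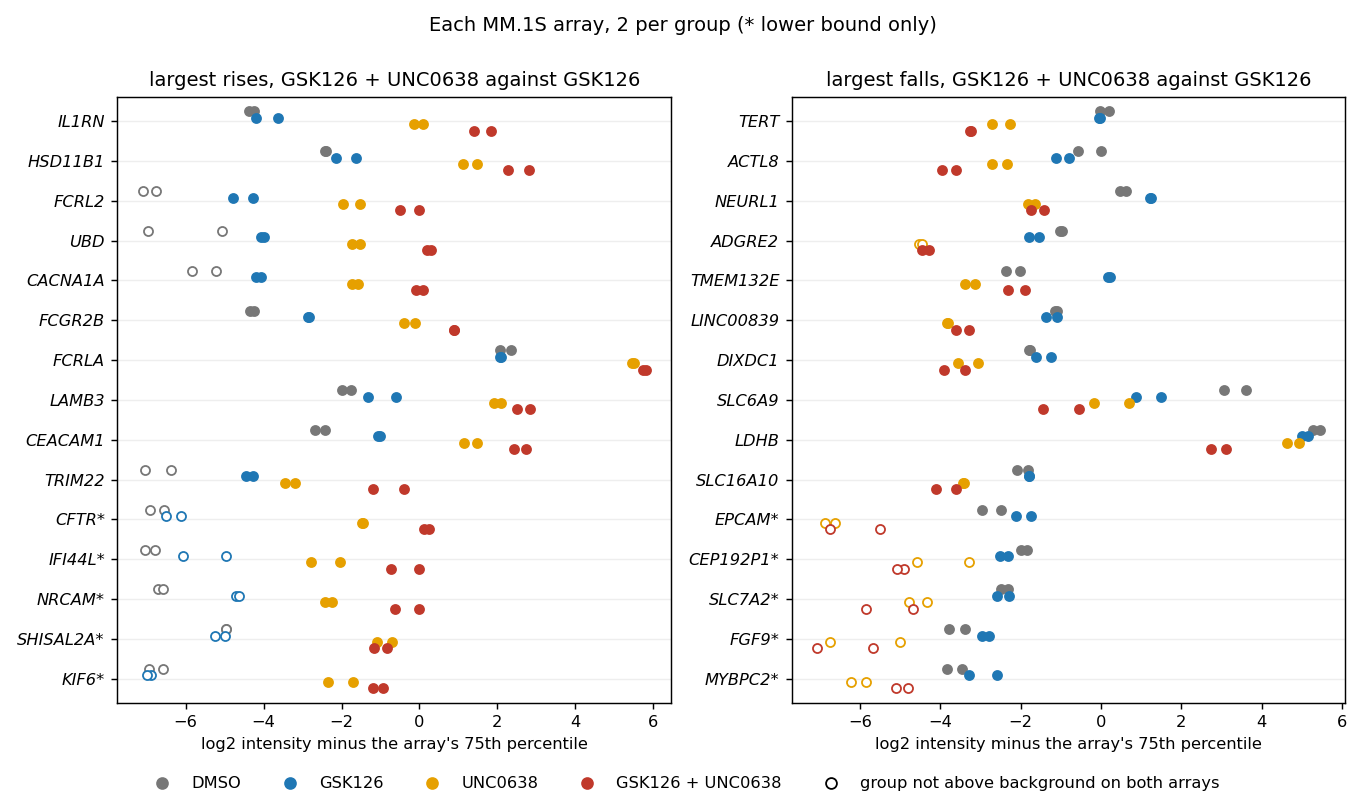
Log2 level relative to the array's 75th percentile (horizontal axis) of the genes with the largest changes, with a point for each of the 8 MM.1S arrays coloured by treatment. Open circles mark groups not above background on both arrays, an asterisk marks a gene with only a lower bound, and CFTR moves from -6.12 and -6.50 with GSK126 to 0.12 and 0.24 with the combination.

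The genes of the drug targets themselves were read next. EZH2 was 3.81 and 3.62 with GSK126 and 2.92 and 2.37 with the combination, without overlap, and fell by 1.07 (adjusted p 0.00652). EHMT2, which encodes G9a, was 0.44 and 0.36 against 0.24 and 0.08, a difference of -0.24 that was not called (adjusted p 0.103). Of 13 PRC2 subunits and cofactors 7 fell and 1 rose, with a median of -0.34. EPOP fell by 0.71, EED by 0.46 and SUZ12 by 0.34, and PHF1 rose by 0.38. Under quantile normalization 5 were lower and the median was -0.13. PHF19 fell by 0.58 on its brightest probe, and its other probe gave 0.17.

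Of 18 H3K9 methyltransferases and partners 5 fell, 27.8% beside 26% over all genes, and 0 rose, with a median of -0.13. The median became -0.06 under quantile normalization and -0.03 with the percentile over detected probes, each with 1 higher. UHRF1, which couples H3K9 methylation to DNA methylation, was 2.86 and 2.74 with GSK126 and 1.61 and 1.42 with the combination and fell by 1.29. SUV39H1 fell by 0.92, SUV39H2 by 0.78 and the corepressor TRIM28 by 0.73. Among 13 demethylases of H3K9 and H3K27, 2 rose and 1 fell, with a median of 0.07. Of 8 DNA methylation enzymes, a list that also holds UHRF1, 4 fell and 2 rose, with a median of -0.14 that became 0.06 under quantile normalization. The methyltransferase DNMT3B fell by 1.12 and DNMT1 by 0.61, while DNMT3A rose by 0.58 and the oxidase TET2 by 0.52. Of the 3 kept probes of DNMT3A 2 were called.

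Interferon-stimulated genes encode antiviral proteins that cells make when interferon binds its receptor. Of the 55 genes listed 53 were measured, and of the 50 measured in both groups 31 rose and 3 fell, 62% and 6%, with a median of 0.52. IFIT1, which binds viral RNA, was -2.26 and -2.66 with GSK126 and 0.34 and 0.78 with the combination. ISG15, a ubiquitin-like modifier, was 1.65 and 1.67 against 2.26 and 2.69. Neither gene had overlapping groups. IFIT1 rose by 3.02 (adjusted p 0.00205), ISG15 by 0.82 (adjusted p 0.0105), OAS3, an RNA-sensing synthetase, by 1.55 (adjusted p 0.00604) and IFI6, a mitochondrial protein, by 1.24 (adjusted p 0.00740). IFIT2, above background only with the combination of the 2 groups compared, rose at least 2.13-fold. The falls were SP100, -0.33, a nuclear body protein, HERC5, -0.48, the ligase that attaches ISG15, and LY6E, -0.88, a surface protein.

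IRF9, a transcription factor that carries the interferon signal, was -0.68 and -0.56 with GSK126 and 0.64 on both combination arrays. Its groups did not overlap, and it rose by 1.26 (adjusted p 0.000960). Of 17 receptor, JAK-STAT and feedback genes 6 rose and 1 fell, with a median of 0.26, led by the feedback protease USP18 at 1.45. Of 8 interferon regulatory factors 3 rose and 2 fell, with a median of 0.16, and IRF7 rose by 0.60. Among 17 sensors of cytosolic RNA and DNA 5 rose and 1 fell, with a median of 0.23. DHX58 rose by 1.69, STING1 by 0.92, RIGI by 0.74 (its other kept probe, 0.49, was not called), IFIH1 by 0.62 and ZBP1 by 0.52, CGAS fell by 0.54, and TLR7 rose at least 7.74-fold.

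Promoters of the list were searched on both strands for the interferon-stimulated response element, spelled GAAA, any 2 bases and GAAA, which IRF9 binds together with its partners. Of the 34 genes that rose, 25 had a RefSeq promoter and 21 of these held it, 84%. It was held by 11 of 17 other measured members, 64.7%, and by 3.57% of 35116 promoters of the table. A gene of the list counts when any of its promoters holds the element. The share of the table counts single promoters, so the units differ. The 34 include 3 genes that passed the filter only through the combination arrays, so they were selected by being brighter there. The difference between 84% and 64.7% was not tested, and no conclusion is drawn from it. Windows around the element are printed on the gene's strand for 4 genes that rose, with the element in capitals, from build GRCh38.p14. IFI44L lies at chr1:78620244-78620424 on the plus strand, RSAD2 at chr2:6877592-6877681 on the plus strand, IFIT1 at chr10:89392467-89392569 on the plus strand and ISG15 at chr1:1013344-1013439 on the plus strand.

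IFI44L: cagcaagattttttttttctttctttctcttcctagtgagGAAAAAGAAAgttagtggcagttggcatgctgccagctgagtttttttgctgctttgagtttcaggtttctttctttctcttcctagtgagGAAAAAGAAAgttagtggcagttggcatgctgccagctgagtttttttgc
RSAD2: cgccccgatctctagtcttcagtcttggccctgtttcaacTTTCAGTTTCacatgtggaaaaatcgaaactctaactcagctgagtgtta
IFIT1: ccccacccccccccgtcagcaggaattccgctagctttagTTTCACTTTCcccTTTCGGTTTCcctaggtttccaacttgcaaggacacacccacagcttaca
ISG15: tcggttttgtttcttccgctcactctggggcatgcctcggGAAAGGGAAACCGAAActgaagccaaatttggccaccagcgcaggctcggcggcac

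RSAD2, an antiviral enzyme, carries the element on the opposite strand, as IFIT1 does, and rose by 3.50. IFI44L and ISG15 carry it on the gene's own strand.

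Antigen presentation genes were read by class. Of 15 MHC class II genes, whose products show peptides to helper T cells, 9 rose and 0 fell, 60% and 0%, with a median of 0.80. HLA-DOB was 0.86 and 1.43 with GSK126 and 3.27 and 3.14 with the combination, and HLA-DRB1 was 2.46 and 2.27 against 4.09 and 3.80. HLA-DOB rose by 2.06 and HLA-DRB1 by 1.58, without overlap, and HLA-DQA1 rose at least 2.74-fold. CIITA, the activator of the class, differed by -0.41 and was not called (adjusted p 0.130). Of 22 class I and peptide loading genes 6 rose and 4 fell, with a median of 0.18, and quantile normalization called 8 higher and 0 lower, with a median of 0.35. B2M, the shared light chain, rose by 0.49, the peptide transporter subunit TAP1 by 0.36 and the loading factor TAPBP by 0.47, and the proteasome activator PSME2 fell by 0.49 and the chaperone CALR by 0.51, calls that quantile normalization did not keep. Probes for polymorphic and near-identical HLA genes do not separate alleles or neighbours with certainty.

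Fc receptor and Fc receptor-like genes lie in clusters on chromosome 1 and bind antibody or signal in B lineage cells. Of 20 listed, 15 were measured, and of the 10 measured in both groups 9 rose and 0 fell, with a median of 2.93. FCRL5, a myeloma surface antigen, was -0.91 and -0.97 with GSK126 and 1.84 and 2.36 with the combination, and rose by 3.04 with no overlap. FCGR2C rose by 3.47, FCER1A by 2.81, FCRL4 by 2.31, FCER1G by 1.07 and FCRLB by 0.76. Of the 2 groups compared, some genes were above background only with the combination. Among these FCRL3 rose at least 6.54-fold, FCRL1 at least 6.39-fold, PIGR at least 5.61-fold and FCGR2A at least 3.57-fold. In the array's GRCh37 coordinates the probes of FCRL5, FCRL4, FCRL3, FCRL2 and FCRL1 start at 157483238, 157544635, 157646324, 157736677 and 157765543. Those of FCGR2A, FCGR2C, FCGR2B, FCRLA and FCRLB start at 161488022, 161561128, 161647120, 161683792 and 161697713. FCGR2A, FCGR2B and FCGR2C are near-identical in sequence, so which of them a probe reads is uncertain.

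Other B cell genes rose in part. Of 18 measured in both groups 7 rose and 0 fell, with a median of 0.28. Their changes ran from -1.63, which was not called, to 1.94, and another background correction called 8 higher and 2 lower. BCL6, a repressor of the germinal centre stage, was -1.70 and -1.60 with GSK126 and 0.12 and 0.46 with the combination, and rose by 1.94. The receptor CD40 rose by 1.73, the kinase BTK by 1.72, the tetraspanin CD37 by 1.20 and the maturation marker CD83 by 1.15, and MS4A1, which encodes CD20, rose at least 2.88-fold. Among the mature B cell markers 0 of the 3 measured in both groups were called, with a median of -0.04 that became 0.07 under quantile normalization and 0.06 with the percentile over detected probes.

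Regulators of plasma cells named by the study were read 1 by 1. MYC, the growth-promoting transcription factor, was 5.52 and 5.44 with GSK126 and 4.05 and 3.92 with the combination. IRF4, the factor on which myeloma cells depend, was 3.60 and 3.82 against 3.05 and 2.93. KLF2, a factor in plasma cell homing, was 3.19 and 3.37 against 2.17 and 2.09. All 3 genes had both combination arrays below both GSK126 arrays. MYC fell by 1.5 (adjusted p 0.00106), KLF2 by 1.15 (adjusted p 0.00183) and IRF4 by 0.72 (adjusted p 0.00667). PRDM1, which sets the plasma cell program, was 4.45 and 4.44 against 4.04 and 4.09 and fell by 0.38 (adjusted p 0.0360). Its other kept probe gave -0.39 and was not called (adjusted p 0.231), and the call was lost under quantile normalization and without any 1 of the 4 arrays compared.

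Over the 26 genes of plasma cell identity and the IRF4 and MYC axis 7 fell, 26.9% beside 26% over all genes, and 3 rose, with a median of -0.12 that became 0.14 under quantile normalization, where 6 fell and 7 rose. Of the 10 plasma cell markers PRDM1, CD38 and IRF4 fell and 0 rose, with a median of -0.18 that became 0.12 under quantile normalization, where 2 fell and 1 rose. XBP1, a factor for secretory capacity, was 6.72 and 6.90 against 6.86 and 6.96, and SDC1, the surface marker CD138, was 5.77 and 5.82 against 5.77 and 5.52, and neither was called. Among 4 myeloid markers the integrin ITGAM rose by 2.76, the lectin CD33 rose by 1.44 and the receptor CSF3R fell by 0.67, with a median of 0.63. Of the T cell markers the adhesion receptor CD2 rose by 1.96, CD8A fell by 0.45, and CD3E, above background on 1 of the GSK126 arrays, was called higher, while the median was 0.02 and became -0.03 under quantile normalization. KLRF1 rose by 1.15 and GNLY by 1.00 among 3 NK cell markers, with a median of 1.00, and the other kept probe of KLRF1 gave 0.40 and was not called. The 3 erythroid markers had 0 called and a median of -0.20, the epithelial pair measured in both groups a median of -0.29, and PDGFRB, the only stromal marker measured in both, differed by -0.58, with a call that was lost under quantile normalization, another background correction and the percentile over detected probes.

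Genes of DNA replication and mitosis fell almost throughout. Of 55 DNA replication and G1/S genes 54 fell and 0 rose, 98.2%, with a median of -0.79. E2F2, an activator of S phase genes, was 5.57 and 5.59 with GSK126 and 4.38 and 4.04 with the combination. It was lower on each combination array than on any GSK126 array. E2F2 and ORC1, an origin recognition subunit, each fell by 1.37, E2F8, a late E2F, by 1.23, and CDC25A, a cyclin kinase phosphatase, by 1.22. With the percentile over detected probes 50 of the 55 were called lower and the median was -0.68.

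Of 46 G2 and mitosis genes 42 fell and 0 rose, with a median of -0.58. Quantile normalization called 35 lower and 1 higher, and the percentile over detected probes called 36 lower and 0 higher. KIF11, the motor that builds the spindle, was 3.26 and 3.16 with GSK126 and 1.47 and 2.05 with the combination, without overlap, and fell by 1.45. ESPL1, which frees sister chromatids, fell by 0.88, CCNB1, the mitotic cyclin, by 0.85, SPC25, a kinetochore subunit, by 0.85, and MKI67, the proliferation antigen, by 0.67. Among 14 cyclins D, their kinases and kinase inhibitors 6 fell, 0 rose and 8 were not called, with a median of -0.21, and quantile normalization called 5 lower and 2 higher. CCND1 was -1.40 and -1.39 with GSK126 and -2.89 and -3.02 with the combination and fell by 1.56, CCND2 fell by 0.99, CCND3 by 0.58 and the kinase CDK6 by 0.90. CDKN1A, the inhibitor p21, differed by 0.30 and was not called (adjusted p 0.294).

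E2F elements, spelled TTTGGCGC or TTTCCCGC, are bound by E2F factors in promoters of replication genes. Of the 54 replication genes that fell, 44 had a RefSeq promoter and 21 of these held an element on either strand, 47.7%. The 1 other measured member held it too, so the list offers no comparison with genes that did not fall. The share was 2.27% over all promoters of the table, which counts promoters and not genes. No conclusion is drawn from these shares. Windows of 3 genes that fell are printed as before. E2F2 lies at chr1:23531234-23531315, CDC25A at chr3:48188418-48188501 and MCM6, a subunit of the replicative helicase, at chr2:135876486-135876635, all on the minus strand.

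E2F2: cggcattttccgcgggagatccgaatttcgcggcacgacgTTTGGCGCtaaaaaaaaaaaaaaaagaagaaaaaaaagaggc
CDC25A: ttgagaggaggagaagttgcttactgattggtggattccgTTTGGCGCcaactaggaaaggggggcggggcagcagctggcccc
MCM6: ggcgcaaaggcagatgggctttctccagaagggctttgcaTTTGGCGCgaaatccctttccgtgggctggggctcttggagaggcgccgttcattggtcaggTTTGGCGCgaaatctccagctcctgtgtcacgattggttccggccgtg

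MCM6 holds the element at 2 places and fell by 0.78.

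Of 14 BCL2 family genes, which govern cell death, 3 rose and 0 fell, 21.4% beside 15.7% over all genes, with a median of 0.21. Quantile normalization and the percentile over detected probes each called 7 higher, and another background correction called 6 higher and 3 lower. BBC3, the killer protein PUMA, was 2.09 and 1.96 with GSK126 and 3.12 and 3.10 with the combination, without overlap, and rose by 1.09. BMF, another killer protein, rose by 1.03 and the survival protein MCL1 by 0.28, a call lost in several settings. BCL2L2, a survival protein above background on 1 of the GSK126 arrays, was called higher. ZMAT3, an RNA-binding protein, was -2.59 and -2.57 with GSK126 and -0.88 and -0.70 with the combination, and rose by 1.79 with no overlap.

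Genes of the ATF4 response, which cells use to restore amino acids under stress, fell in part. Of 37 measured in both groups 19 fell and 1 rose, 51.4% and 2.7%, and 17 were not called, with a median of -0.53. With the percentile over detected probes 15 fell and 3 rose, with a median of -0.42. SLC6A9 was 0.87 and 1.49 with GSK126 and -0.53 and -1.44 with the combination. SLC7A5, the large neutral amino acid transporter, was 2.24 and 2.53 against 0.70 and 0.37, and PHGDH, the entry enzyme of serine synthesis, was 0.37 and 0.88 against -0.78 and -1.40. No combination array of these genes reached a GSK126 array. SLC6A9 fell by 2.17 (SE 0.43, adjusted p 0.0110), SLC7A5 by 1.85, PHGDH by 1.72 and PYCR1, a proline enzyme, by 1.64. ATF4 itself fell by 0.34, the lipoprotein receptor VLDLR rose by 1.09, and DDIT3, 0.34, and TRIB3, -0.40, were not called.

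Other amino acid lists were read beside it, and they share members with it, such as SLC6A9, PHGDH and PYCR1, so they are not separate evidence. Of 24 serine, glycine and one-carbon enzymes 16 fell and 2 rose, with a median of -0.60, where PSAT1 fell by 1.56 and MTHFD1L by 1.21, and ALDH1L1 rose at least 2.30-fold. Of 16 amino acid synthesis enzymes 8 fell and 0 rose, with a median of -0.49. Quantile normalization called 6 of them lower and 2 higher, with a median of -0.25. Among 18 amino acid transporters 6 fell and 2 rose, 33.3% and 11.1%, with a median of -0.32, and quantile normalization called 6 lower and 4 higher. In this list SLC38A5 fell by 1.24 and SLC1A5 by 1.23. Cytosolic aminoacyl-tRNA synthetases, which charge tRNAs, had 14 of 20 lower and 0 higher with a median of -0.55, and the mitochondrial set had 6 of 16 lower and 0 higher with a median of -0.27.

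The C/EBP-ATF element, spelled TGATGNAA, is bound by ATF4 with a C/EBP partner. Of the 19 ATF4 response genes that fell, 15 had a RefSeq promoter and 6 of these held it on either strand, 40%. It was held by 5 of 16 other measured members, 31.3%, and by 3.62% of all promoters, which counts promoters and not genes. These shares were not tested against each other. Windows are printed for 3 genes that fell, SLC1A5 at chr19:46784864-46784951 on the minus strand, CHAC1, a glutathione-degrading enzyme, at chr15:40953222-40953309 on the plus strand and ASNS, asparagine synthetase, at chr7:97872429-97872516 on the minus strand.

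SLC1A5: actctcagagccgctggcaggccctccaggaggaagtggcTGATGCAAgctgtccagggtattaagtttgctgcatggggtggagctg
CHAC1: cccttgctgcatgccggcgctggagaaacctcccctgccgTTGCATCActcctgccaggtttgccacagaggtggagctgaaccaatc
ASNS: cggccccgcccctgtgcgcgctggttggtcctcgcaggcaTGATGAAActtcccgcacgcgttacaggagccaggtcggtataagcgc

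CHAC1 fell by 1.19 and ASNS by 0.48.

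Growth machinery fell broadly. Of 50 ribosome biogenesis factors 46 fell and 0 rose, 92%, with a median of -0.82. With the percentile over detected probes 44 were called lower and the median was -0.72. NPM3, a nucleolar chaperone relative, was 3.83 and 3.91 with GSK126 and 2.58 and 2.51 with the combination and fell by 1.33 with no overlap. RRP12, an export factor of ribosomal subunits, fell by 1.38, BOP1, a processing factor, by 1.35 and NLE1, an assembly factor, by 1.33. Of 56 cytosolic ribosomal proteins 44 fell and 0 rose, with a median of -0.39, but 28 fell with the percentile over detected probes and 11 under quantile normalization. RPS2, a protein of the small subunit, fell by 0.98.

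Of 31 proteasome subunits 30 fell and 0 rose, with a median of -0.53, and quantile normalization called 16 lower. PSMC6, a subunit of the proteasome's ATPase ring, was 2.83 and 2.79 with GSK126 and 1.80 and 2.06 with the combination, and fell by 0.88. Of 21 glycolysis enzymes 11 fell and 0 rose, with a median of -0.48, and quantile normalization called 8 lower with a median of -0.26. ENO1 was 4.56 and 4.57 against 3.70 and 3.49 and fell by 0.97, LDHA fell by 0.96, HK2 by 0.92 and ALDOA by 0.84. Among 27 cholesterol synthesis genes 4 fell and 2 rose, with a median of -0.10 that became 0.04 under quantile normalization and 0.01 with the percentile over detected probes. The epoxidase SQLE fell by 1.62, FASN, the fatty acid synthase, by 0.95, and the reductase TM7SF2 rose by 0.82.

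Of 36 ER secretory and unfolded protein response genes 6 rose and 2 fell, with a median of 0.07, and quantile normalization called 15 higher and 0 lower. DNAJB9, a chaperone of the ER lumen, was 4.08 and 4.21 with GSK126 and 5.39 and 5.64 with the combination, and rose by 1.37. ERO1B, an oxidase for disulfide bonds, rose by 1.09. Housekeeping reference genes had 6 of 16 lower and 1 higher with a median of -0.25, which became -0.05 with 5 lower under quantile normalization, and among them the transferrin receptor TFRC fell by 1.07 and the glycolytic enzyme GAPDH by 0.76.

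Inflammatory genes rose in part. Of 23 NF-κB pathway genes 7 rose and 2 fell, with a median of 0.17. TRAF1, a signalling adaptor, was -2.34 and -2.53 with GSK126 and -0.72 and -0.61 with the combination and rose by 1.78, the adhesion molecule ICAM1 rose by 1.09 and the survival factor BIRC3 by 0.67. Of 12 chemokine ligands 6 rose and 1 fell, with a median of 0.27, where CCL25 rose by 2.47, CCL2 by 2.18 and CXCL13 by 1.54. CXCL9, above background on 1 of the GSK126 arrays, was called higher.

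Genes silenced in most adult tissues were read beside the shares over all genes. Of 9 cancer-testis antigens 4 fell and 2 rose, 44.4% and 22.2%, with a median of -0.58. MAGEC3 was -2.51 and -2.43 with GSK126 and -0.32 and -0.17 with the combination and rose by 2.22, opposite to ACTL8. Of 7 germline and meiosis genes 3 fell and 1 rose, 42.9% and 14.3%, with a median of -0.13, and TEX15, a factor of spermatocytes, fell by 1.68. TEX19, above background on 1 of the combination arrays, was called lower. Among 9 HOX cluster genes 2 fell and 0 rose, 22.2% and 0%, with a median of -0.16. HOXA3 and HOXC4, above background only with the combination of the 2 groups compared, rose at least 1.72-fold and 1.68-fold. Of 5 globin genes 2 rose and 0 fell, 40% and 0%, with a median of 0.15, and HBD rose by 1.09 and HBB by 0.61, while the other kept probe of HBB gave 0.41 and was not called, although globin genes are near-identical and a probe can read its neighbour.

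**Figure D3:**
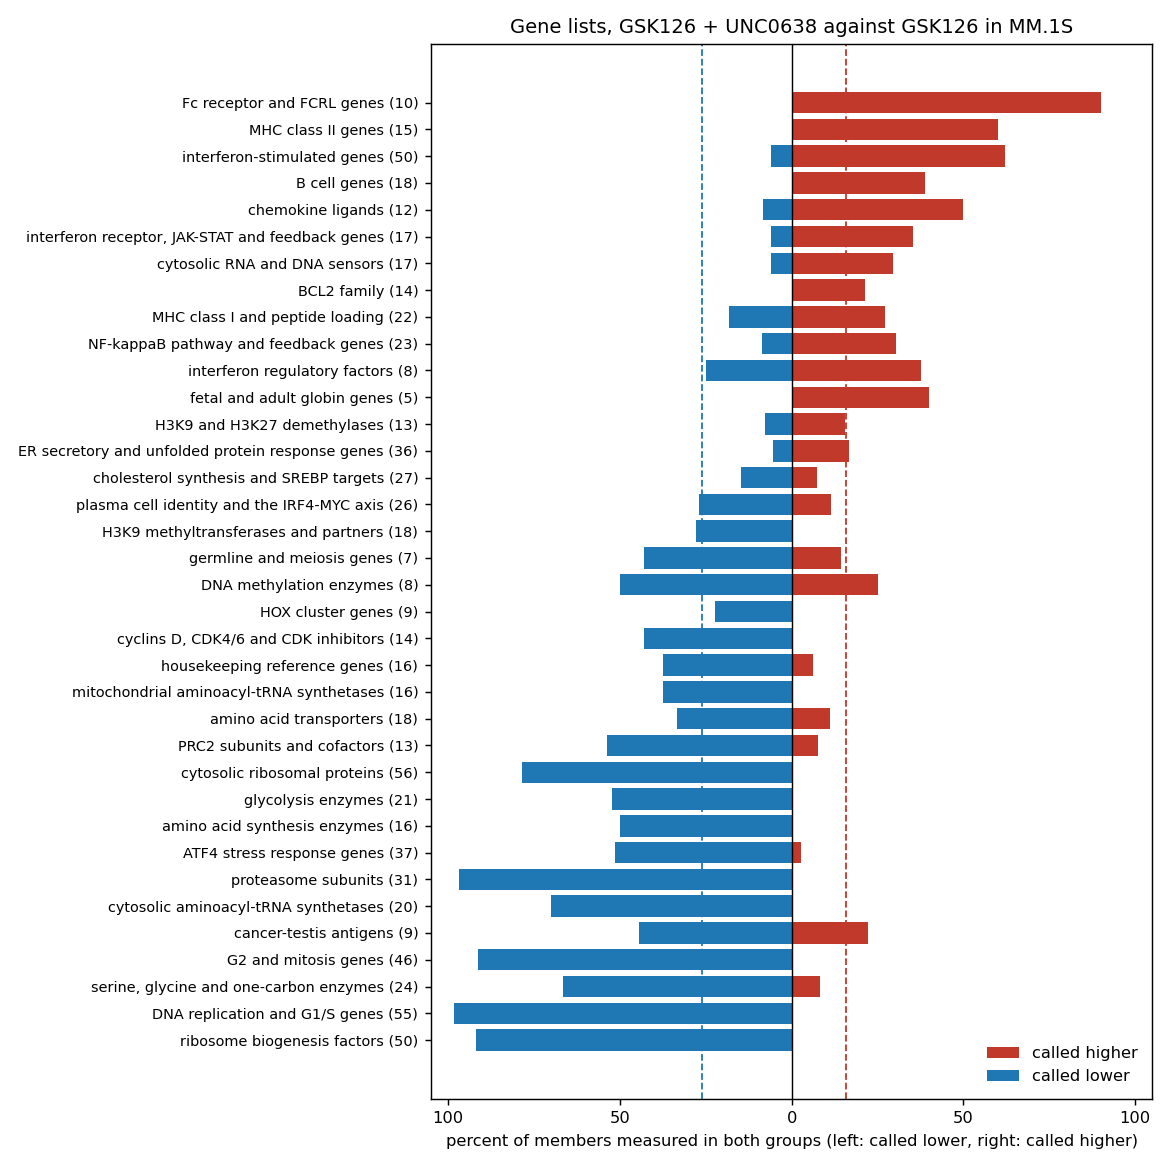
Share of each gene list's members measured in both groups that were called higher or lower with the combination relative to GSK126 (horizontal axis, percent), with dashed lines at the shares over all genes, 15.7% and 26%. DNA replication genes reach 98.2% lower and Fc receptor genes 90% higher, and the median of the lists for plasma cell identity, cholesterol synthesis and DNA methylation enzymes, all negative, turned positive under quantile normalization.

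The same drug given without GSK126 offers a comparison on other arrays, UNC0638 against DMSO. Across 25100 probes, which are not independent, the change with GSK126 present and the change without it correlated with r 0.81 and rho 0.77. Of 9311 probes called with GSK126 present and 7366 called without it 5750 were shared, 61.8% and 78.1% of each, and 5731 of those had the same direction.

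Limma called 0 of 25100 probes for a difference between the changes with and without GSK126, 0% of those tested, with a smallest adjusted p of 0.140 and 2457 probes under 0.05 before adjustment. Other settings called 31 probes with another background correction, 4 with quantile normalization, 3 with an intensity trend and 3 without UNC0638 replicate 1. The other background correction called, among genes named here, IL1RN (1.43, adjusted p 0.0337), CFTR, UBD, CACNA1A, LDHB and TMEM132E. For UBD it turned the sign of the difference, from -0.14 to 1.24, and for CACNA1A it moved it from 0.25 to 0.98. A count of 0 does not make the changes equal. MYC was 5.80 and 5.59 with DMSO and 4.66 and 4.43 with UNC0638 alone, a change of -1.15 beside -1.5 with GSK126 present. IL1RN was -4.38 and -4.25 with DMSO and -0.15 and 0.09 with UNC0638 alone, 4.28 beside 5.53. The medians with and without GSK126 were -0.79 and -0.41 for replication genes, -0.82 and -0.56 for ribosome biogenesis and 0.52 and 0.80 for interferon-stimulated genes. They were -0.53 and -1.04 for ATF4 response genes and -0.32 and -0.72 for amino acid transporters. In other lists the medians lay closer, with 2.93 and 2.96 for Fc receptor genes and -0.39 and -0.44 for cytosolic ribosomal proteins. Cytosolic aminoacyl-tRNA synthetases had -0.55 and -0.62, and glycolysis enzymes -0.48 and -0.45. Differences between such medians were not tested.

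**Figure D4:**
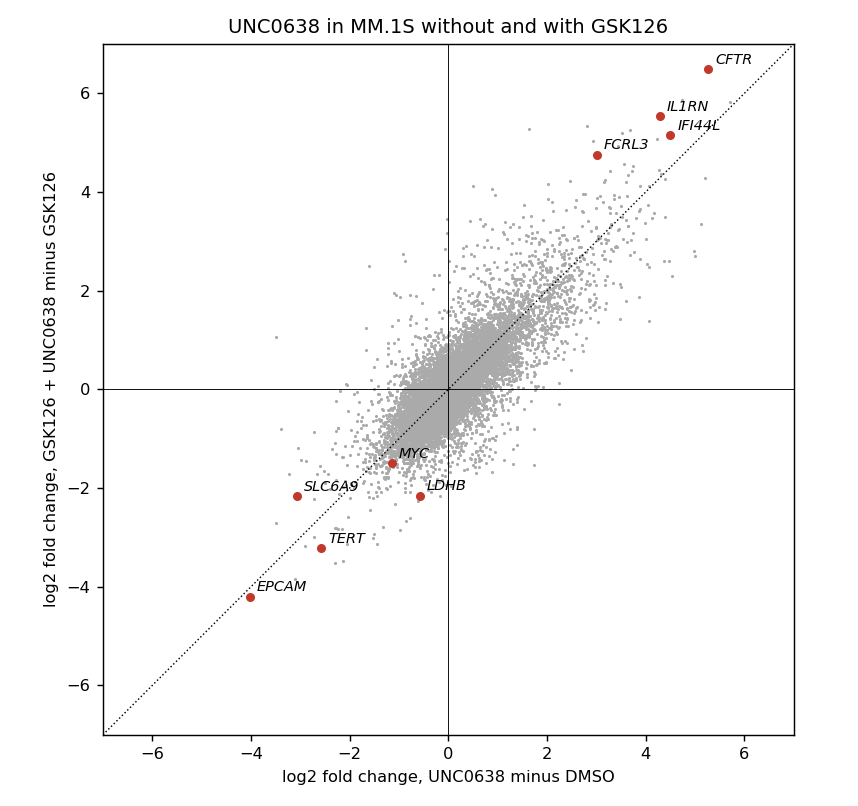
Log2 change of each probe with UNC0638 against DMSO (horizontal axis) and with the combination against GSK126 (vertical axis) in MM.1S, with a dotted line of equality. The points follow the line with r 0.81 across probes, and IL1RN sits at 4.28 and 5.53 and MYC at -1.15 and -1.5.

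The same addition of UNC0638 to GSK126 in RPMI-8226 called 487 probes higher and 153 lower of 22497 tested. Between the lines, limma called 1170 of 26262 probes different, 4.46%, with 538 higher and 632 lower in MM.1S, and line cannot be told apart from slide. A replicate block gave 953 and 1177, and single arrays moved these counts. Without MM.1S combination replicate 2 they were 192 and 264, without MM.1S GSK126 replicate 1 236 and 229, without MM.1S GSK126 replicate 2 288 and 292, and without MM.1S combination replicate 1 318 and 417. Leaving out RPMI-8226 GSK126 replicate 1 gave 336 and 413, and leaving out RPMI-8226 GSK126 replicate 2 gave 804 and 789. Across 26262 probes the changes in the lines correlated with r 0.36 and rho 0.40. The SD of these log2 changes, which includes noise between arrays, was 0.67 in MM.1S and 0.66 in RPMI-8226. Counts of called probes therefore do not compare the size of the changes between the lines. Of the 20772 probes measured in both lines, 8130 were called in MM.1S and 370 in RPMI-8226, of which 235 were shared, 2.89% and 63.5% of each, with 230 in the same direction.

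LAMB3 was -0.61 and -1.33 with GSK126 and 2.84 and 2.51 with the combination in MM.1S, and 4.52 and 4.74 against 4.85 and 4.62 in RPMI-8226. The groups were apart in MM.1S and overlapped in RPMI-8226, and the difference between the lines was 3.54 (adjusted p 0.000348). Where a group was not above background, a difference between the lines gives a direction and not a size. KIF6, CFTR, ADAM29, a sperm membrane protein, and CST2, a salivary cystatin, were called different toward MM.1S, and none of them was above background on both arrays of a group compared in RPMI-8226. LBH, a transcription cofactor, was called different but was not above background on any MM.1S array, and in RPMI-8226 it was 1.67 and 1.92 with GSK126 and -2.75 and -1.24 with the combination. SLN, a regulator of the muscle calcium pump, was -3.18 and -3.35 with GSK126 and -3.13 and -3.43 with the combination in MM.1S, where it was not called (adjusted p 0.961), and it rose at least 21.4-fold in RPMI-8226. FGFBP1, a growth factor carrier, rose at least 14.7-fold in RPMI-8226, SPRR1A, an epidermal protein, at least 12-fold, CSRP3, a muscle protein, at least 8.68-fold and GSTA2, a detoxifying enzyme, at least 5.65-fold, and none of these was above background in either MM.1S group compared.

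**Figure D5:**
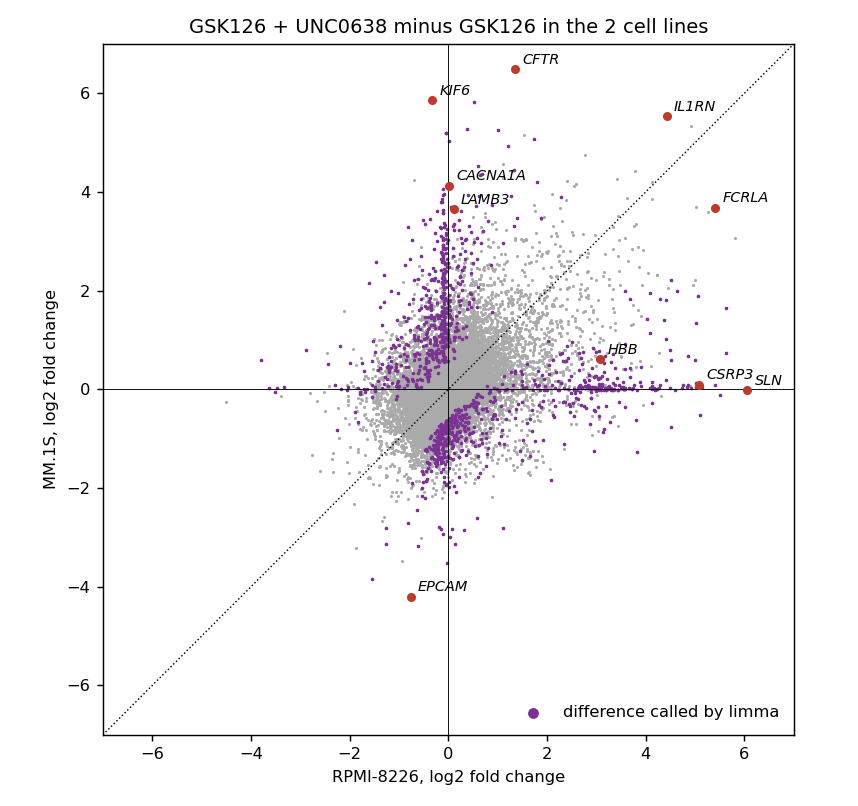
Log2 change of each probe when UNC0638 was added to GSK126 in RPMI-8226 (horizontal axis) and in MM.1S (vertical axis), with probes whose difference was called in purple. The changes correlate with r 0.36 across probes, and LAMB3 changes by 3.65 in MM.1S and 0.11 in RPMI-8226.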

How the data were processed

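RNA of 16 cell cultures was measured on 1-colour Agilent arrays of 62976 spots. The deposited files hold the spot intensity that Agilent Feature Extraction 10.7 gave for each array, background-subtracted and not scaled between arrays, and the authors' series table holds the same intensity (99.996% of 939472 values equal at 3 significant digits). The study's methods name GeneSpring with gene ontology, pathway and gene set analyses, refer to an earlier paper for the array analysis, and themselves state no filter, normalization or test of single genes.

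After a log2 transform, the 75th percentile of an array's non-control spots was taken off each value, and replicate spots were merged into their mean. Probes entered a test when well above background on both arrays of either group compared. The 8 MM.1S arrays (4 groups of 2) were fitted in R 4.3.3 with limma 3.58.1 (lmFit and eBayes, no replicate block), with Benjamini-Hochberg adjustment over all probes tested and a threshold of 0.05, and the comparison of lines used all 16 arrays. The code was tested on simulated data. Named genes are the largest changes in each direction among called probes whose groups did not overlap. These were measured in both groups (10 each) or only in the brighter group (5 each). Also named are the 4 largest called members of each list, the 5 largest differences between lines in each direction, and genes named by the study. Further members of the lists are given for their role. Each gene of a list is read on its brightest probe. The lists and members were chosen with earlier results of these data known. Promoters run from 250 bases before to 50 after RefSeq starts on GRCh38.p14. Alternatives were quantile normalization, normexp background correction with offset 50, no filter, a stricter filter and a percentile over detected probes. Others were the series table, a replicate block, an intensity trend and other arrays in the fit. Single arrays were also left out in turn, between the lines only those of the GSK126 and combination groups. Some genes and a list built on 1 of them are not reported here.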

Additional observations from a re-analysis of the deposited data

Results flagged for a closer look

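The change made by adding UNC0638 to GSK126 was compared between MM.1S and RPMI-8226 by limma over all 16 arrays, and 1170 probes differed. Each cell line lay on its own slide, so a difference between lines and a difference between slides cannot be told apart. Values here are the log2 change in MM.1S minus that in RPMI-8226, for the genes named in the report or among the largest changes of its gene lists. What makes the lines differ was not tested.

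Some of these genes were above background on both arrays of all 4 groups compared. Positive differences among them were 3.54 for LAMB3, 2.54 for HLA-DOB, 1.80 for ICAM1, 1.57 for ZMAT3, 1.49 for BCL6, 1.37 for TRAF1, 0.95 for STING1 and 0.72 for TM7SF2. Negative ones were -2.90 for ACTL8, -2.23 for SLC16A10, -1.89 for ADGRE2, -1.73 for DIXDC1, -1.61 for GLUL, -1.61 for LDHB, -1.57 for NEURL1, -1.51 for SQLE, -1.40 for SLC7A5, -1.33 for E2F2, -1.31 for KIF11, -1.30 for RRP12 and -1.29 for PYCR1. Smaller negative differences were -1.07 for MYC, -0.99 for EZH2, -0.95 for PSMC6, -0.92 for E2F8, -0.88 for ESPL1, -0.82 for RPS2, -0.81 for MAGEA12, -0.73 for SPC25 and -0.67 for PSMD12.

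Each of the other genes had at least 1 group not above background on both arrays. Their values are built partly on background signal, so they give a direction and not a size, and their order is not a ranking. With a positive sign they were 6.19 for KIF6, 5.13 for CFTR, 5.03 for ADAM29, 4.92 for CST2, 4.38 for LBH, 4.12 for CACNA1A, 4.08 for SHISAL2A, 3.66 for NRCAM, 2.57 for MAGEC3, 2.39 for FCRL1, 2.29 for CCL25, 2.16 for ALDH1L1 and 1.62 for CXCL13. LBH was above background only in RPMI-8226, where it fell. With a negative sign they were -6.08 for SLN, -5.63 for SPRR1A, -5.61 for FGFBP1, -5.29 for GSTA2, -4.97 for CSRP3, -3.49 for FGF9, -3.44 for EPCAM, -2.68 for SLC7A2, -2.48 for HBB, -2.13 for CD3E, -1.86 for TEX19 and -1.53 for TEX15. Of the groups compared, SPRR1A, FGFBP1, GSTA2 and CSRP3 were above background only with the combination in RPMI-8226.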

How the results depend on the processing

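Not every setting applies to every result. Of 186 named gene results none reversed its direction where it was run. These do not include the difference between the changes with and without GSK126, where UBD went from -0.14 to 1.24 with normexp, or list medians, some of which changed sign under quantile normalization. Of the 186 results 140 never lost a call, but these include results that had none to lose, such as EHMT2. The other 46 lost their call in at least 1 setting, most often without combination replicate 2. Among those printed in the report, PDGFRB, MCL1, PRDM1 and CXCL9 and the line differences of ADAM29 and CST2 lost it most often. Calls were also lost for HOXA3, TAPBP, CSF3R, CD38, DNMT3A, ERO1B, SLC6A9, STING1, FASN, CALR, PSME2, TMEM132E, TRIM28, CCL2, CCND3, HBB, GNLY, KLF2, B2M, CD8A and BCL2L2, and between the lines for LBH, SPRR1A and CSRP3.

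Adding UNC0638 to GSK126 called 3852 probes higher and 5582 lower. Without the background filter the counts were 2562 and 3343, and 2352 were higher in a fit of all 16 arrays. Leaving out each MM.1S array in turn gave 2257 to 3640 higher and 3401 to 5055 lower, with the remaining array of a group assumed to vary as the other groups do.

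For the difference between the changes with and without GSK126 the count was 0, and became 4 with quantile normalization, 31 with normexp and 3 with an intensity trend. Leaving out arrays gave 0 to 3.

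Between the lines the counts were 538 and 632. Normexp gave 833 higher, dropping the filter 354 and 343, the replicate block 953 and 1177, and the intensity trend 986 lower. Leaving out each GSK126 or combination array of either line gave 192 to 804 higher and 229 to 789 lower. The DMSO and UNC0638 arrays of that fit were not left out.

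Whether replicate numbers pair cultures across groups was checked. Deviations of the same number correlated with r 0.0847 to 0.225 between MM.1S groups, above 0.1 in 5 of 6 pairs, and the numbers were not taken as pairs. File names carry a date for each number, whose meaning is not stated. With the replicate block as a paired fit, 4396 probes were higher and 6267 lower. The cause of these shifts was not tested.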

Other observations

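FOSB, DUSP1 and FOS were picked after their values were seen. FOSB, a subunit of the AP-1 transcription factor, was -1.30 and -1.85 with GSK126 and 1.33 and 0.51 with the combination, and rose by 2.49 (adjusted p 0.0100). With DMSO FOSB was -0.05 and -1.35 and with UNC0638 alone -2.11 and -2.48, a difference of -1.60 that was not called (adjusted p 0.0537). DUSP1, a phosphatase of MAP kinases, was 1.44 and 1.27 with GSK126 and 2.62 and 2.66 with the combination and rose by 1.28 (adjusted p 0.00407), while with UNC0638 alone it changed by -1.14 (adjusted p 0.00886). FOS, another AP-1 subunit, rose by 1.24 (adjusted p 0.0238) and changed by -1.67 with UNC0638 alone (adjusted p 0.0133).

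The difference between the changes with and without GSK126 was not called by limma for FOSB, 4.09 (adjusted p 0.318), DUSP1, 2.42 (adjusted p 0.216), or FOS, 2.91 (adjusted p 0.291). With normexp background correction all 3 were called, FOSB with an adjusted p of 0.0377, DUSP1 with 0.0114 and FOS with 0.0337, and with an intensity trend DUSP1 was called (adjusted p 0.0194).

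Of the genes measured in both groups on the X chromosome, 111 of 454 were higher with the combination, a larger share than on any other chromosome and than the 15.7% over all genes measured in both. The 4 chromosomes with the largest shares lower were 22, 19, 16 and 6, with 32.4%, 31.4%, 31.2% and 30.9%, against 26% over all genes measured in both, and on chromosome 6 18.7% were higher. Whether chromosomes differ in these shares was not tested.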
